A study of Mus musculus with 8 samples.

Results

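The 9 genes described here encode enzymes that make or break down heme: Alas1, Alas2, Alad, Uros, Urod, Cpox, Ppox and Fech of the synthesis pathway, and Hmox1, which degrades heme. They were picked out of 52224 genes by name, by a rule that uses no measured value, though earlier results of these data were known. All 9 were among the 37414 genes tested. RNA was sequenced from mouse bone marrow hematopoietic stem cells, which had been sorted as LSK cells carrying CD150 and lacking CD48 (LSK are immature marrow cells with Sca-1 and Kit and no lineage markers). There were 4 libraries of genotype DekTg and 4 of genotype DekCon. The genotype names refer to Dek, a chromatin protein, and the labels give no promoter, allele, age, sex or number of mice for either group. None of the 9 genes passed the test for a difference between the groups, and each difference is given with its 95% interval.

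Heme is an iron-containing ring that hemoglobin, cytochromes and many enzymes need. Its synthesis starts in the mitochondrion with 5-aminolevulinate synthase, the rate-limiting step, which has a form made in every cell (Alas1) and an erythroid form (Alas2). The intermediate steps run in the cytosol and the last ones back in the mitochondrion, where ferrochelatase (Fech) inserts iron. Heme oxygenase 1 (Hmox1) opens the ring and releases iron, carbon monoxide and biliverdin. Red cell precursors raise the whole pathway under the erythroid factor GATA1, while stem cells need heme mainly for respiration.

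Promoter sequences are shown for the synthase pair, the general and the erythroid form of 1 enzyme, and for Cpox. Cpox, like Alas2, has GATA matches close to its start site. Uros also has GATA matches near a start site, and its sequence is not printed. The sequences come from RefSeq on GRCm38.p6, and 7 of the 9 genes had a window of 250 bases before to 50 bases after a start site (Hmox1 and Fech had none). Only bases outside annotated exons are printed for Alas2 and Cpox, and capitals mark GATA matches on either strand. For Alas1, 30 bases are printed around a match to the core of the NRF1 motif, in capitals; NRF1 is a factor of genes for respiration. The Alas2 stretch is chrX:150547167-150547374 on the plus strand, that of Cpox is chr16:58669958-58670207 on the plus strand, and that of Alas1 is chr9:106247906-106247935 on the minus strand.
Alas2: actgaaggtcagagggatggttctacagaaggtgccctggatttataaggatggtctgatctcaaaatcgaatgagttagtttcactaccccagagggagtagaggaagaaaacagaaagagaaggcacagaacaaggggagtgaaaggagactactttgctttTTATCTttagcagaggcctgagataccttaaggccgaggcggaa
Cpox: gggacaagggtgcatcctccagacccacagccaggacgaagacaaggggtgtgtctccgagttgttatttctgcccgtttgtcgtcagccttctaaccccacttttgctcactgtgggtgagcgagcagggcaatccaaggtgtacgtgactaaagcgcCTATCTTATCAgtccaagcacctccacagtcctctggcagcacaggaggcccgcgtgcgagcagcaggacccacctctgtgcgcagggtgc
Alas1: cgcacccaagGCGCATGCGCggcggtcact

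The GATA search looked for AGATAA or AGATAG or TGATAA or TGATAG on both strands. Alas2 had 1 match, starting 86 bases before its start site. Cpox had matches 91 and 86 bases before its start site, which overlap by 1 base, and another 5 bases into the transcript. Uros had 2 matches, 205 and 68 bases before the downstream of its 2 start sites. Alas1, Alad and Uros have 2 windows each, and 3 of the 10 windows of the 7 genes held a GATA match, close to the 29.8% of all 32817 promoter windows that hold one. The NRF1 core was searched as GCATGCGC on both strands and was found, overlapping itself, in Alas1 alone of the 7 genes. It was in 2 of the 10 windows, both of Alas1, against 2.71% of all windows. It lies 195 bases before one Alas1 start site and 30 bases into the transcript from the other. The E-box CACGTG was in Alad, Uros and Urod, in 4 of the 10 windows (7.15% of all windows). The CCAAT box was in Alad, Urod and Ppox, also in 4 of the 10 windows (37.4% of all windows). The antioxidant response element, TGACNNNGC, was in 0 of the 10 windows (12.4% of all windows). A match is a description of letters and shows no binding.

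Libraries held 2642858 to 3591212 recovered reads in DekTg, against 2525884 to 4101132 in DekCon. A normalized read count, the unit used throughout, is the number of reads of a gene divided by a size factor of the library. Dek itself was listed higher in DekTg, with a ratio of means of 4.68, though none of the 4 DekTg values of Dek is a whole number of reads. Libraries 1 and 4 of each group were much closer to each other than other pairs: their counts differed by a chi-square of 1.78 per gene in DekTg and 1.64 in DekCon, against 5.19 to 12.8 for the other pairs of a group (1 would be counting noise alone). Nothing in the labels says that the 8 libraries come from separate mice, so p-values measure the spread between these libraries, which may be technical. Values with libraries 1 and 4 averaged are therefore given below.

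Slamf1, which encodes CD150, averaged 201 ± 12.3 normalized read counts in DekTg and 268 ± 30.5 in DekCon, and Kit averaged 1309 ± 170 in DekTg and 1298 ± 152 in DekCon (SD, n = 4 each). Cd48, the marker the gate removes, still averaged 207 ± 26.3 in DekTg and 195 ± 62.4 in DekCon. Of 15 genes that mark stem cells or their neighbours 0 passed the test (4 had an unadjusted p under 0.05, where 6.93% of all genes tested did). Their log2 fold changes were above 0 for 8 and below 0 for 7. Cd34 was at 2265, 624, 1109 and 2249 in DekCon libraries 1 to 4, and averaged 2079 ± 72.3 in DekTg. Flt3 was at 837, 161, 385 and 847 in DekCon libraries 1 to 4, and averaged 760 ± 65.4 in DekTg (SD, n = 4 each). Of the other lists, 3 of 22 erythroid and 2 of 14 B and plasma cell genes passed, all higher in DekTg (0.0347% of all genes tested passed). The summed B and plasma cell level was 5201 to 6047 in DekTg libraries, against 1164 to 2011 in DekCon libraries. The antibody genes Ighm, Igkc and Jchain carried this gap, and the other 11 genes summed to 1052 ± 43.7 in DekTg and 1021 ± 72.7 in DekCon (SD, n = 4 each). Xbp1 and Ebf1, with means of 472 and 183 over the 8 libraries, make up much of the sum of these 11. Of all 14 genes, 12 had a log2 fold change above 0 (median 0.49). The groups did not overlap for 5 (3.97% over all genes tested): the antibody genes, Ms4a1 and Pax5, all higher in DekTg. None passed among 13 macrophage, 12 neutrophil, 11 megakaryocyte and 8 T and NK cell genes. The summed neutrophil level was 2258 to 17032 in DekTg libraries, against 4062 to 10273 in DekCon libraries. DekTg library 3 stood out, with S100a8 at 4181 against 114, 592 and 98.7 in DekTg libraries 1, 2 and 4. All 11 megakaryocyte genes had a log2 fold change below 0 (median -0.73), and 8 had an unadjusted p under 0.05. Such a p, in either direction, was also found for 9 of 22 erythroid and 6 of 14 B and plasma cell genes. The macrophage, neutrophil and T and NK lists held 2, 2 and 1. DekCon library 2 carried much of the megakaryocyte shift: without it the median was -0.39, with 5 unadjusted p under 0.05 and all 11 genes below 0. No marker was at 0 in all libraries. In bulk RNA, fewer cells of a type and less RNA per cell cannot be told apart.

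Per length, the pathway was carried at very unequal transcript levels. On the scale of normalized read counts per kb of exon, Alad was highest at 102 ± 25.5 in DekTg and 128 ± 30.8 in DekCon (SD, n = 4 each). Urod followed at 74.6 ± 8.93 in DekTg and 89.9 ± 17.3 in DekCon. Alad was above Urod in 7 of 8 libraries, and Urod was above Ppox in all 8.

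Ppox, Alas1, Fech and Hmox1 formed a middle group whose ranges overlapped. Ppox was at 31.7 ± 6.29 per kb in DekTg and 38.9 ± 4.82 in DekCon, and it was above Alas1 in only 4 of 8 libraries. Alas1 was at 29.5 ± 6.43 in DekTg and 36.8 ± 11.6 in DekCon, and Fech at 29.8 ± 1.48 in DekTg and 32.3 ± 3.21 in DekCon. Hmox1 was at 27.5 ± 5.28 in DekTg and 26.9 ± 18.1 in DekCon. Uros (18.6 ± 3.53 in DekTg, 18.4 ± 2.09 in DekCon) and Cpox (15.1 ± 1.38 in DekTg, 14.8 ± 4.04 in DekCon) were lower.

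Alas2 was last in both groups, at 4.50 ± 0.76 per kb in DekTg and 3.14 ± 1.95 in DekCon, and Cpox was above it in all 8 libraries. With the longest coding transcript as the length in place of all exons, Alad, Urod and Ppox were again the first 3 and Alas2 the last, while Hmox1 moved to eighth place. On that length the means of Uros and Cpox (37.5 and 32.2 per kb) were above that of Hmox1 (30.4), and Ppox was above Fech, the next gene, in 7 of 8 libraries. The make-up and order of the middle group therefore depend on which length is used.

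**Figure D1:**
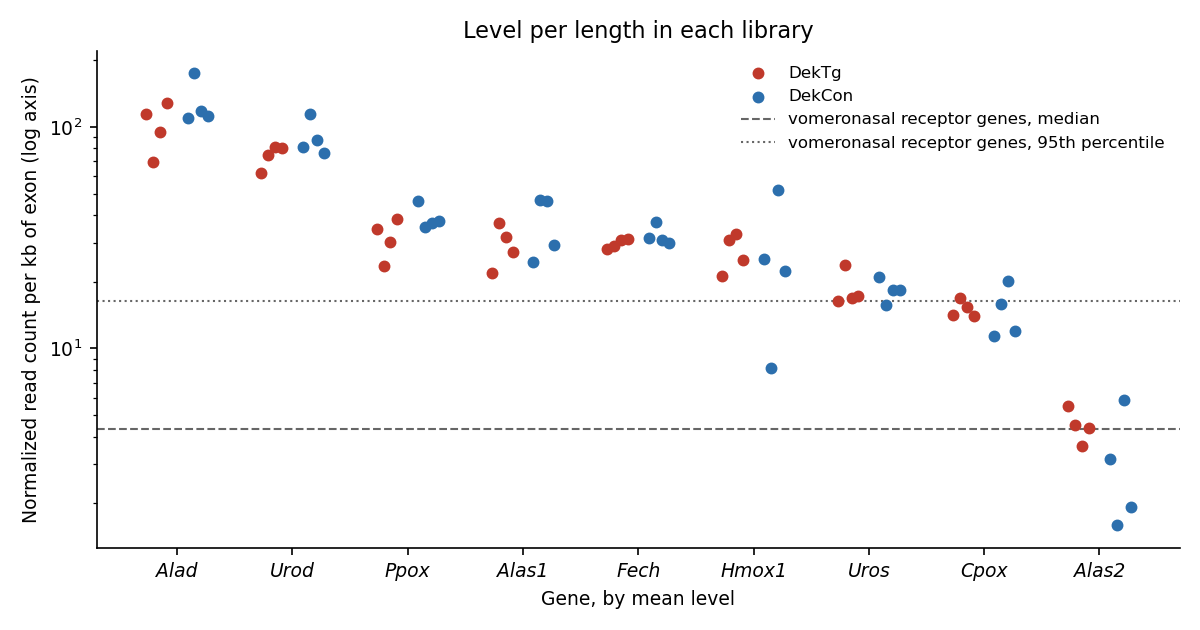
Normalized read counts per kb of exon (log axis) for the 9 genes, 1 point per library, DekTg red and DekCon blue, genes ordered by mean level. The dashed and dotted lines are the median (4.33) and 95th percentile (16.4) of 327 vomeronasal receptor genes; Alas2 lies around the dashed line and the genes from Alad to Fech lie above the dotted one in every library.

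A yardstick for low levels was taken from vomeronasal receptor genes, which are known for their use in sensory neurons of the nose. This family was chosen after the data had been seen, and 327 of its genes could be matched to a length. Their median level was 4.33 per kb and their 95th percentile 16.4. Of these 327 genes, 178 had a mean level at or above that of Alas2. Set on the same scale, 20 of the 327 were at or above Cpox, 14 at or above Uros, 3 at or above Hmox1, 2 at or above Fech, 1 each at or above Alas1 and Ppox, and 0 at or above Alad and Urod.

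The first step was measured through both synthases (gene positions below are on GRCm38). Alas1, spanning bases 106233455 to 106248654 of chromosome 9 (minus strand), had normalized read counts of 135, 228, 197 and 169 in DekTg libraries 1 to 4, against 151, 289.9, 286 and 181 in DekCon libraries 1 to 4. DekCon libraries 2 and 3 were the 2 highest, and the groups overlapped. The log2 fold change of Alas1 was -0.28 (95% interval -0.72 to 0.16, limma adjusted p = 0.807).

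Alas2, spanning bases 150547375 to 150570638 of chromosome X (plus strand), had 13.2, 10.8, 8.73 and 10.5 in DekTg libraries 1 to 4, against 7.61, 3.83, 14.1 and 4.63 in DekCon libraries 1 to 4. The 4 DekTg values lay close together, while DekCon library 3 was the highest of all 8 and the other 3 DekCon libraries were the lowest. These values rest on 9 to 16 reads in DekTg and 4 to 15 reads in DekCon. The log2 fold change of Alas2 was 0.60 (95% interval -0.25 to 1.45, limma adjusted p = 0.787), the largest estimate of the 9 genes and the widest interval. Exons of Alas2 overlap those of Apex2, a DNA repair gene on the other strand with a mean of 97.4, and the strand setting of the counting is not known, so reads of both cannot be told apart.

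Of all reads from the 2 synthase genes, those of Alas2 made up 8.89%, 4.52%, 4.25% and 5.85% in DekTg libraries 1 to 4, against 4.8%, 1.30%, 4.70% and 2.50% in DekCon libraries 1 to 4. The shares averaged 5.88 ± 2.13% in DekTg and 3.33 ± 1.72% in DekCon (SD, n = 4 each). Wilson 95% intervals ran from 5.55% to 13.95% for DekTg library 1 and from 0.508% to 3.30% for DekCon library 2, the extremes, and they cover counting error only. The shares of the groups overlapped, and no test was made of this ratio. Alas1 supplied the large majority of synthase reads in every library.

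The cytosolic steps follow. Alad, which condenses aminolevulinate to porphobilinogen and is the enzyme that lead inhibits, spans bases 62509169 to 62519918 of chromosome 4 (minus strand). Its counts were 214, 129.7, 177 and 239 in DekTg libraries 1 to 4, against 205, 326, 219.5 and 209.9 in DekCon libraries 1 to 4. DekCon library 2 was far above the other 3 of its group, and DekTg library 2 was the lowest of all. Alad had a log2 fold change of -0.35 (95% interval -0.75 to 0.05, limma adjusted p = 0.747).

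Uros, which closes the ring, spans bases 133686243 to 133710072 of chromosome 7 (minus strand). Its counts were 58.5, 85.3, 60.2 and 61.9 in DekTg libraries 1 to 4, against 74.8, 56.5, 66.0 and 65.6 in DekCon libraries 1 to 4. Apart from DekTg library 2, the DekTg values fell within a narrow band inside the DekCon range. For Uros the log2 fold change was 0.0064 (95% interval -0.36 to 0.38, limma adjusted p = 0.995).

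Urod, which removes carboxyl groups from the ring and is deficient in porphyria cutanea tarda, spans bases 116989965 to 116994413 of chromosome 4 (minus strand). Its counts were 161, 193, 211 and 209 in DekTg libraries 1 to 4, against 209, 298, 227 and 198 in DekCon libraries 1 to 4. DekCon library 2 was again the highest, and the groups overlapped. Urod had a log2 fold change of -0.26 (95% interval -0.57 to 0.06, limma adjusted p = 0.759).

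The last steps run in the mitochondrion. Cpox, which oxidises coproporphyrinogen, spans bases 58670292 to 58717636 of chromosome 16 (plus strand). Its counts were 94.0, 113, 103 and 93.4 in DekTg libraries 1 to 4, against 76.1, 106, 134 and 79.5 in DekCon libraries 1 to 4. All 4 DekTg values lay inside the DekCon range. The log2 fold change of Cpox was 0.06 (95% interval -0.32 to 0.44, limma adjusted p = 0.961). Its exons overlap those of Gpr15 on the other strand (mean 15.0).

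Ppox, which makes protoporphyrin, spans bases 171275990 to 171281186 of chromosome 1 (minus strand). Its counts were 156, 107, 137 and 173 in DekTg libraries 1 to 4, against 208, 159.8, 166 and 169.8 in DekCon libraries 1 to 4. Of the DekTg libraries, 3 were below all DekCon values and library 4 was above 3 of them. Ppox had the smallest unadjusted p of the 9 genes (0.07), with a log2 fold change of -0.31 (95% interval -0.65 to 0.03, limma adjusted p = 0.732). Its exons overlap those of B4galt3 on the other strand (mean 452), so some of its reads may belong to that gene.

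Fech, which puts iron into protoporphyrin, spans bases 64452914 to 64490251 of chromosome 18 (minus strand). Its counts were 389, 402, 425 and 434 in DekTg libraries 1 to 4, against 436, 513, 425 and 416 in DekCon libraries 1 to 4. It was the steadiest of the 9 genes, with a 1.32-fold span from the lowest to the highest library. For Fech the log2 fold change was -0.11 (95% interval -0.36 to 0.13, limma adjusted p = 0.858), an interval that reaches from 0.778-fold to 1.10-fold.

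Degradation was measured through Hmox1, a stress-induced gene that heme itself turns on by releasing the repressor BACH1, and which spans bases 75093621 to 75100589 of chromosome 8 (plus strand). Its counts were 37.1, 54.1, 57.3 and 44.1 in DekTg libraries 1 to 4, against 44.4, 14.4, 90.5 and 39.4 in DekCon libraries 1 to 4. The 4 DekTg values fell between DekCon libraries 2 and 3, which were the lowest and the highest of all, a 6.30-fold span. The log2 fold change of Hmox1 was 0.27 (95% interval -0.51 to 1.06, limma adjusted p = 0.90), although the group means were almost equal at 48.1 ± 9.25 in DekTg and 47.1 ± 31.7 in DekCon (SD, n = 4 each). The estimate turned to -0.19 without DekCon library 2 and to 0.67 without DekCon library 3. Macrophages of the marrow also make Hmox1; the summed level of 14 macrophage markers was 1370 to 3064 in DekTg libraries, against 1044 to 1948 in DekCon libraries. Lyz2, which neutrophils also make, dominates that sum. It was at 585, 847, 2073 and 571 in DekTg libraries 1 to 4, against 569 to 829 in DekCon libraries. Without Lyz2 the other 13 markers summed to 803, 808, 991 and 799 in DekTg libraries 1 to 4, against 716, 475, 1167 and 746 in DekCon libraries 1 to 4. DekCon library 2 was the lowest and DekCon library 3 the highest, as for Hmox1, and the part of these cells in the Hmox1 values was not tested.

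**Figure D2:**
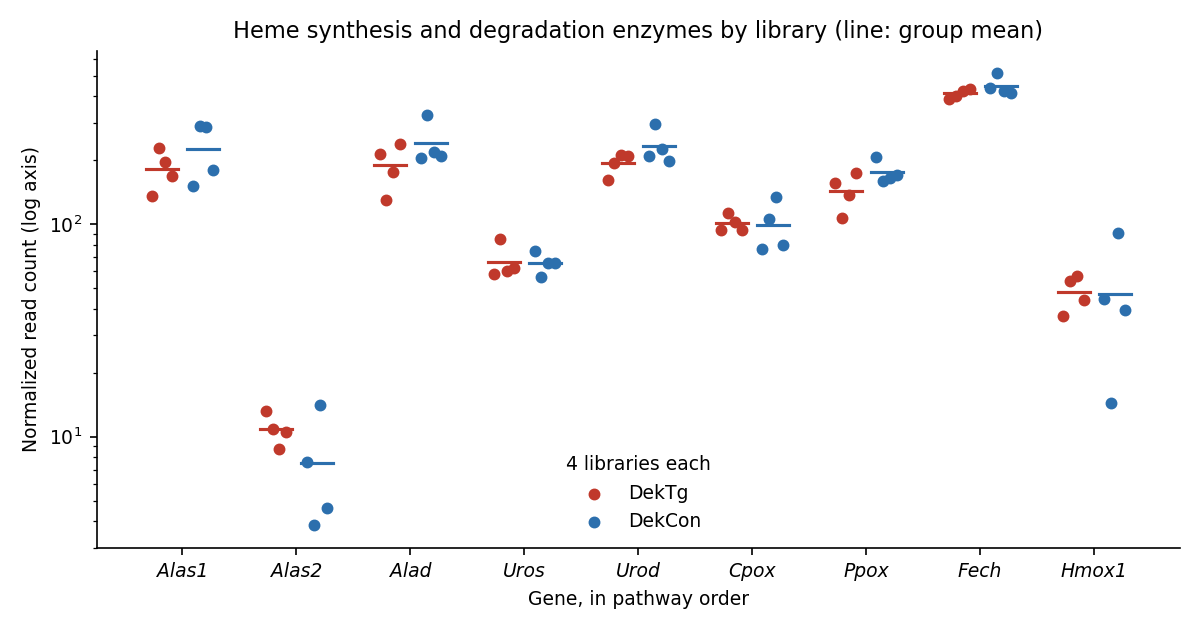
Normalized read counts (log axis) of the 9 genes in pathway order, 1 point per library with DekTg in red to the left of DekCon in blue, and a line at each group mean. The groups overlap for all 9 genes; Alas2 is lowest, and Hmox1 in DekCon spreads from 14.4 to 90.5.

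Of the 9 genes, 0 passed the threshold of an adjusted p of 0.05, where 0.0347% of all genes tested did so. None had an unadjusted p under 0.05, against 6.93% of all genes tested, and none had groups that did not overlap, against 3.97%. EdgeR's quasi-likelihood test on the recovered reads called 0 of the 9 (0.0241% of genes tested), and DESeq2 called 0 (0.422% of those with an adjusted p, which included Fech alone of the 9). Of the 9 estimates, 5 were below 0, with a median log2 fold change of -0.11. Over all genes tested the median was 0.0057 and 49.4% were below 0, and over the 22610 genes with a mean value of at least 10 the median was -0.023 and 53.7% were below 0. With quantile normalization the median of the 9 genes was 0.011, so the sign of this small shift depends on the scaling.

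Single libraries moved many of the estimates. DekCon library 2 held the highest value of Alas1, Alad, Urod and Fech and the lowest of Alas2, Uros and Hmox1. Without that library the log2 fold change was -0.15 for Alas1, -0.19 for Alad, -0.13 for Urod, -0.05 for Fech, 0.38 for Alas2 and -0.06 for Uros. Ppox was at -0.35 and Cpox at 0.11 without it. Alas1 moved as far without DekTg library 1 or DekCon library 3 (-0.15 each) and went to -0.46 without DekCon library 1. Alas2 was at 0.93 without DekCon library 3, and Urod at -0.17 without DekTg library 1. Cpox lay between -0.051 and 0.22 as each library in turn was left out. DekTg library 2 mattered for Alad, Ppox and Uros, which had -0.18, -0.18 and -0.12 without it. Averaging libraries 1 and 4 of each group gave -0.50 for Alad, 0.51 for Alas2, 0.38 for Hmox1 and -0.0076 for Cpox, and none of the 9 genes passed.

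**Figure D3:**
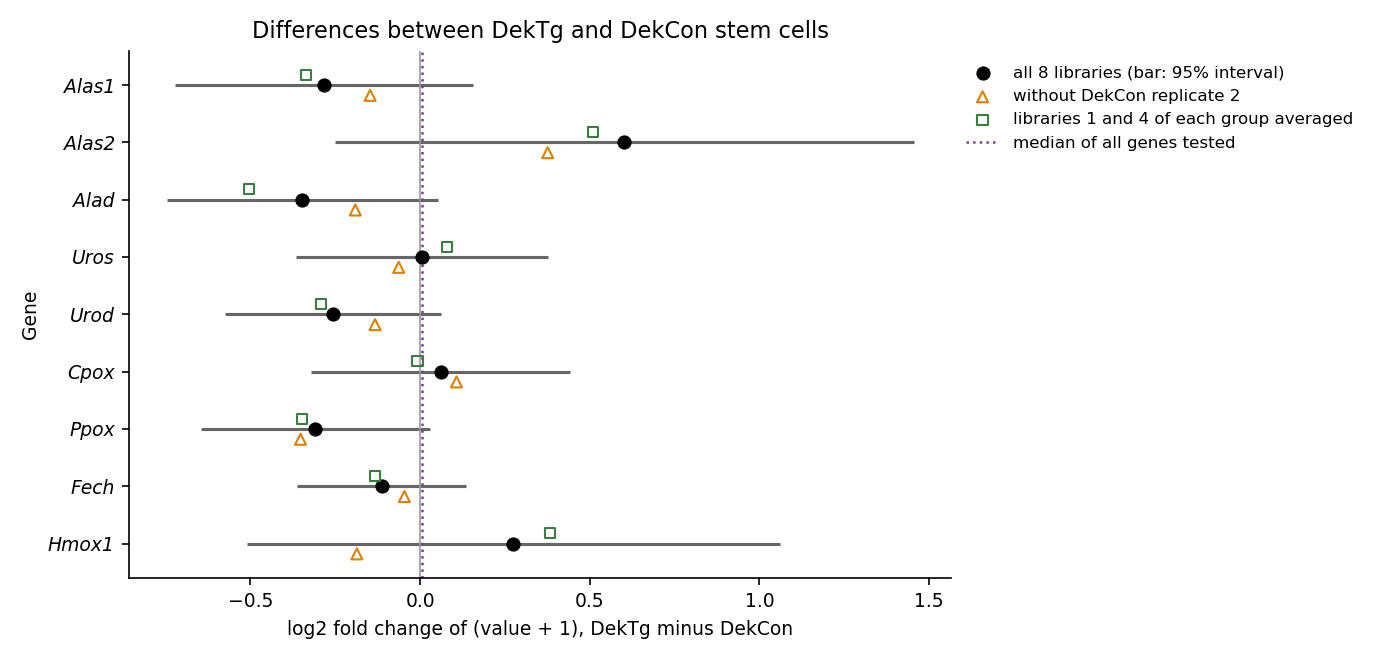
Log2 fold changes of value + 1, DekTg minus DekCon, for the 9 genes in pathway order (black points, bars are 95% intervals), with the estimates without DekCon library 2 (triangles) and with libraries 1 and 4 averaged (squares); the dotted line is the median of all genes tested. All 9 intervals include 0; Hmox1 and Uros change sign without DekCon library 2, and Cpox does so with libraries 1 and 4 averaged.

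The hemoglobin genes, whose product carries the heme of red cells, were set beside Alas2. Their summed value, over Hba-a1, Hba-a2, Hbb-bs and Hbb-bt, was 461 ± 51.8 in DekTg and 86.0 ± 18.3 in DekCon (SD, n = 4 each), a ratio of 5.37 (two-sided exact permutation test, p = 0.0286, the smallest this design allows). With the closely alike libraries 1 and 4 averaged, the ratio was 5.37 and the exact p was 0.1, the smallest that 3 against 3 allow, so a p under 0.05 rests on counting those libraries as separate. The test was also chosen with earlier results of these data known. Per Alas2 read count, hemoglobin stood at 34.4, 49.6, 47.8 and 41.8 in DekTg libraries 1 to 4, against 10.3, 17.5, 7.80 and 19.0 in DekCon libraries 1 to 4. The 4 DekTg ratios were all above the 4 DekCon ratios. This ratio is a description without a test, and its denominator is at most 16 reads.

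Other erythroid genes lay on both sides of 0. Gata1 averaged 167 ± 20.9 in DekTg and 315 ± 183 in DekCon, with no overlap (log2 fold change -0.78, limma adjusted p = 0.711). DekCon library 2 alone was at 588, and without it the log2 fold change of Gata1 was -0.43 (adjusted p = 0.933). Slc4a1, the red cell anion exchanger, averaged 17.2 ± 10.04 in DekTg and 6.24 ± 1.53 in DekCon (adjusted p = 0.711). Of the 22 erythroid genes tested, 12 had a log2 fold change above 0 and 10 below, and the 3 that passed were all globin genes. An unadjusted p under 0.05 was found for 9 of the 22 (6.93% over all genes tested). These were the hemoglobin genes and Slc4a1, all higher in DekTg, and Epor, Gfi1b, Gata1 and Kel, all lower. The summed level of the erythroid list was 2999 to 4733 in DekTg libraries, against 2731 to 5928 in DekCon libraries. Car2 and Car1, with means of 2096 and 408 over all libraries, make up much of that sum. It therefore says little about the other genes of the list.

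The vomeronasal receptor yardstick was also higher in all 4 DekTg libraries. The median vomeronasal receptor gene was at 4.75, 4.75, 4.73 and 4.71 per kb in DekTg libraries 1 to 4, against 4.12, 3.63, 4.68 and 3.97 in DekCon libraries 1 to 4. DekCon library 3, the highest for Alas2, was also the DekCon library highest on this scale, and DekCon library 2 was the lowest on both. The part of this shift in the Alas2 estimate was not tested.

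**Figure D4:**
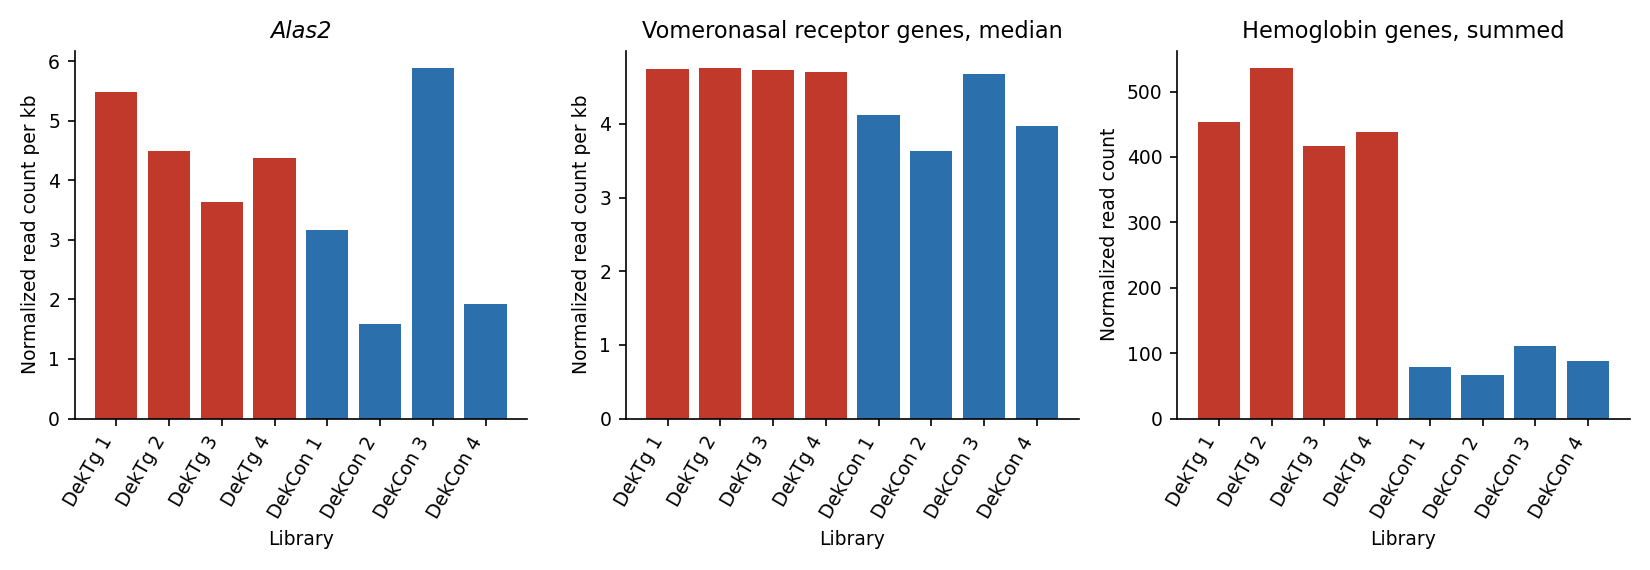
Bars from 0 for each library, DekTg red and DekCon blue: Alas2 per kb of exon (left), the median of 327 vomeronasal receptor genes per kb (middle) and the summed normalized read count of 4 hemoglobin genes (right). Hemoglobin is at 417 or more in each DekTg library and at 110.2 or less in each DekCon library, while Alas2 overlaps between the groups.

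The genes whose pattern over the 8 libraries was most like that of Alas2 were Hjv (Pearson r = 0.96), Opcml (0.95) and Or52b4i (0.94), out of 13582 genes with a mean of at least 20. For Hmox1 they were Or11h6 (0.97), Zfyve26 (0.96) and Scg2 (0.96). These are descriptions across 8 libraries that share depth and group. Or52b4i and Or11h6 are olfactory receptor genes, Opcml is a neuronal adhesion gene and Scg2 encodes a secretory granule protein of neuroendocrine cells. No erythroid gene was among the 3 nearest to Alas2.

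Genes around the pathway were read from 6 lists of other heme enzymes, heme and porphyrin carriers, iron handling, iron-sulfur assembly, heme-sensing regulators and NRF2 targets. Of their 76 genes 0 passed the threshold (0.0347% over all genes tested), 10 had an unadjusted p under 0.05 (6.93% over all) and 4 had groups that did not overlap (3.97% over all). Below 0 were 58 of the 76, with a median log2 fold change of -0.16, where 49.4% of all genes tested and 53.7% of those with a mean of at least 10 were below 0. The median stayed below 0 in all 20 alternatives run, with 55 of the 76 below 0 by edgeR and 58 by DESeq2. The lean shrank most under 1 other scaling and without 1 library. With quantile normalization 45 of the 76 were below 0 (median -0.066), and without DekCon library 2 there were 48 (median -0.092). The shares over all genes are not matched to the levels of the 76. Summed over all genes, normalized read counts were also lower in DekTg (ratio of means 0.941), with overlap between the groups. The part of this in the lean was not tested. None of the 76 passed by edgeR. None passed by DESeq2 either, but it gave an adjusted p to only 3319 genes, and those among the 76 were not counted.

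Among the 7 other heme enzymes, 5 were below 0. Cox15, which turns heme into the form used by cytochrome c oxidase, averaged 229 ± 26.4 in DekTg and 272 ± 10.5 in DekCon, with no overlap (log2 fold change -0.25, limma adjusted p = 0.727).

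Of 22 carriers of heme, porphyrin and their precursors, 18 were below 0, with a median of -0.23. Tspo, an outer mitochondrial membrane protein that binds porphyrins, averaged 503 ± 67.6 in DekTg and 678 ± 52.8 in DekCon, with no overlap (log2 fold change -0.44, limma adjusted p = 0.707). Abcb8, a mitochondrial transporter, averaged 149 ± 25.9 in DekTg and 205 ± 29.1 in DekCon (-0.47, adjusted p = 0.711).

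Of 13 genes of iron uptake and storage, 8 were below 0. Tfr2, transferrin receptor 2, averaged 313 ± 62.0 in DekTg and 419 ± 62.5 in DekCon (log2 fold change -0.43, limma adjusted p = 0.711). Slc11a2, which carries iron out of endosomes, averaged 72.2 ± 11.6 in DekTg and 103 ± 28.3 in DekCon (-0.48, adjusted p = 0.711). Of 13 genes of iron-sulfur cluster assembly, 11 were below 0, with Lyrm4 at -0.48 (adjusted p = 0.711) and Isca2 at -0.22 (adjusted p = 0.786).

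Of 12 regulators, 10 were below 0. Mafg, a partner of BACH1 and NRF2 on DNA, averaged 395 ± 49.9 in DekTg and 540.1 ± 92.3 in DekCon (log2 fold change -0.44, limma adjusted p = 0.711), and Nr1d1, a nuclear receptor that binds heme, had -0.73 (adjusted p = 0.717). Of 9 NRF2 targets, which share antioxidant control with Hmox1, 6 were below 0. Srxn1, which repairs peroxiredoxins, averaged 36.9 ± 4.62 in DekTg and 25.4 ± 3.79 in DekCon, with no overlap (0.53, adjusted p = 0.711), and Gclm had -0.20 (adjusted p = 0.762).

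**Figure D5:**
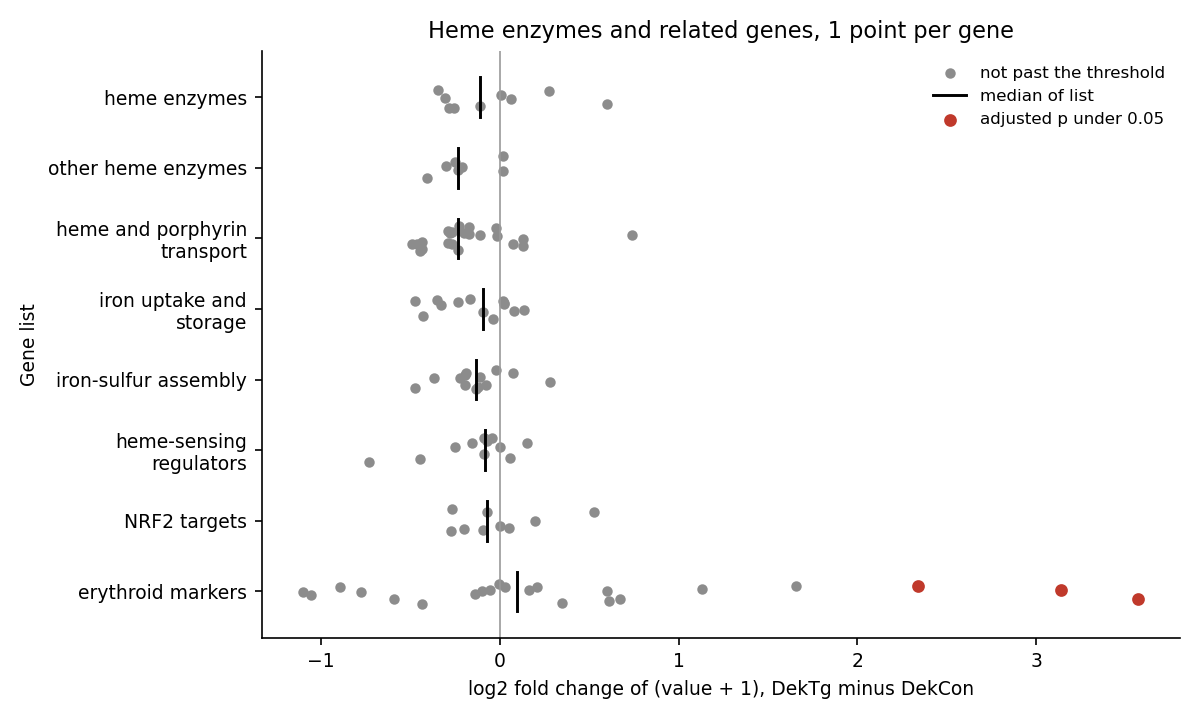
Log2 fold changes of value + 1, DekTg minus DekCon, 1 point per gene for the 9 heme enzymes, 6 lists of related genes and the erythroid markers, with a line at each list's median. No heme enzyme or related gene is past the threshold (grey), and the 3 erythroid genes past it (red) are Hba-a1, Hba-a2 and Hbb-bs.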

How the data were processed

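Per the labels' protocols, a miRNeasy kit yielded the total RNA, which was amplified by Geo-seq (made for few cells) and turned into libraries by tagmentation. The submitters' processing notes name HTSeq, DESeq2, Cufflinks 2.1.1 and Bowtie 0.12.9, with build mm10. Their order, the gene models used and the strandedness of counting are not stated there. Per gene, the deposited signal is named FPKM, but 99.99% of its 417792 values are whole multiples of 1 step per library (tolerance 0.001 reads), and the steps match the inverse of size factors computed as DESeq2 does from the recovered reads. It was read as read counts that the authors divided by a size factor, here called normalized read counts. The 25 other values lie in 6 genes, none of them a heme enzyme. The column names spell DekCon as DenCon.

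A gene was tested if 4 or more of its 8 values reached 1. The test was made with limma 3.58.1 (R 4.3.3) on log2(value + 1), with a mean-variance trend, two-sided, and p-values were adjusted by Benjamini-Hochberg across every gene tested, at a threshold of 0.05. This scale understates changes of low genes. The test was checked on simulated data. EdgeR 4.0.16 and DESeq2 1.42.0 were run on recovered reads, without the 6 genes. Hemoglobin was compared by exact permutation (scipy 1.17.1). The members, lists and tests were chosen with earlier results of these data known. From each related list, genes past the threshold were to be named, or else the 2 of smallest p. One gene that this rule names is not reported here. Outside that rule, Gata1, Slc4a1, Slamf1, Kit, Cd48, Cd34, Flt3, S100a8 and the vomeronasal genes were picked with their values in view. Lengths and positions are from GENCODE M21 (GRCm38, the assembly mm10 names); its gene names differ in part from the table's. Levels per length used the union of exons. Marker lists and hemoglobin under other settings were computed after seeing the data. Because cDNA was amplified, reads are not separate molecules, and intervals on shares of reads cover counting error alone.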

Additional observations from a re-analysis of the deposited data

Results flagged for a closer look

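Alad in DekCon replicate 2 was 326, far above the other 3 DekCon libraries, which lay between 205 and 219.5. Uros in DekTg replicate 2 was 85.3, far above the other 3 DekTg libraries, which lay between 58.5 and 61.9. In each case the gap to the nearest library, as a share of the group's range, exceeded Dixon's 95% critical value for 4 samples. These were 2 of 20 groups examined (9 genes and summed hemoglobin in both genotypes), and chance flags about 1 in 20.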

How the results depend on the processing

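None of the 9 heme enzymes and none of the 76 related genes passed the threshold in any of the 20 alternatives run, and the smallest adjusted p of a heme enzyme was 0.569 (Alas2 without DekCon replicate 3). DESeq2 gave an adjusted p to 3319 genes, which included 1 of the 9, and those among the 76 were not counted. Of 179 re-estimates of the 9 genes, 7 changed sign. Fech went to 0.011 with quantile normalization and Cpox to -0.0076 with libraries 1 and 4 averaged. Leaving out 1 library at a time gave -0.12 to 0.070 for Uros, -0.051 to 0.22 for Cpox and -0.19 to 0.67 for Hmox1. Over all genes, 13 passed; 4 did so without the trend, 8 without the 6 genes holding values that are not whole, 8 with TMM scaling (also run without those genes), and 13 to 21 on leaving out 1 library, the most being without DekTg replicate 2. The cause was not tested. The log2 ratio of hemoglobin was 2.32 to 2.57 on leaving out 1 library, with p = 0.0571 by exact permutation each time, the smallest that 4 against 3 libraries allow. With libraries 1 and 4 averaged, an alternative chosen after seeing the data, it was 2.43 (exact p = 0.1). No clear pairing by replicate number was seen: deviations of same-numbered libraries correlated at 0.014 to 0.071 and not every library correlated best with its own number. Correlations this weak cannot decide whether the libraries were paired. On recovered reads edgeR called 9 genes and DESeq2 14. With the replicate number as a block 15 genes passed, and no heme enzyme did. Depth limits Alas2, at 4 to 16 reads, and genes not called may still differ within the intervals given.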
